A study of Mus musculus with 17 samples.

Results

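The genes of cholesterol and fatty acid synthesis were followed in 17 mouse tumours by RNA sequencing. The 31 genes, of 23284 gene symbols counted, were taken by symbol from a fixed list: 17 enzymes of sterol synthesis, 10 enzymes of fatty acid synthesis and desaturation, and 4 genes of regulation and transport. All 31 symbols were in the count tables. The tumours were 8 of genotype Rb1/Trp53/Crebbp and 9 of genotype Rb1/Trp53, all labelled as neuroendocrine tumours of the pituitary from engineered mice, so the Rb1 and Trp53 alleles are shared by both groups. The labels give no ages, driver of recombination or animal for each tumour, so a p-value here covers the spread among samples, which may be technical, and no more. The genotypes were compared to find genes under the control of Crebbp, a histone acetyltransferase and coactivator of transcription.

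The libraries were of 2 kinds. Pomc, the precursor of corticotropin and the melanocyte-stimulating hormones, had more counts than Calca, the calcitonin gene, in 10 libraries (Pomc-high: 4 Rb1/Trp53/Crebbp, T5 to T8, and 6 Rb1/Trp53, T2 and T5 to T9). Calca had more counts in the other 7 (Calca-high: 4 Rb1/Trp53/Crebbp, T1 to T4, and 3 Rb1/Trp53, T1, T3 and T4). These sets come from 2 counts of the same libraries and are not groups of the labels. Tbx19, a transcription factor that defines Pomc cells, was at 305 to 418 CPM (each library’s gene counts set to the same TMM-scaled total) in the Pomc-high libraries and at 0 to 0.316 CPM in the Calca-high ones, so the Calca-high libraries lacked this marker of Pomc cells. The sets were cut on Pomc itself, so this does not by itself test the tissue label. Whole-gene counts of Crebbp were 42.8 to 93.3 CPM in Rb1/Trp53/Crebbp tumours and 39.7 to 116 CPM in Rb1/Trp53 tumours, which does not check the deletion of an exon. Total counts on genes were 8328297 to 28140755 per library.

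Cells make cholesterol from acetyl-CoA through mevalonate and squalene, and fatty acids from acetyl-CoA through malonyl-CoA. Transcription of both branches is driven by the SREBP factors, encoded by Srebf1 and Srebf2, which are held in the endoplasmic reticulum by Insig proteins when sterols are plentiful. The Srebf2 product acts mainly on sterol genes, and the shorter Srebf1 product mainly on fatty acid genes.

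SREBP factors bind promoters together with NF-Y, which recognises CCAAT, and Sp1, which recognises GC boxes. RefSeq promoter windows on GRCm38.p6 were available for 24 of the 31 genes, 29 windows of 250 bases before a transcription start. CCAAT, on either strand, was in 20 of the 29, and in 33.8% of all 32851 windows in the table. It was in 13 of 17 windows of sterol enzymes and 3 of 7 of fatty acid enzymes. The GC box GGGCGG, on either strand, was in 21 of the 29 and in 32.7% of all windows. The E-box CACGTG was in 5 of the 29 and in 6.02% of all. The SREBP motif TCACNCCAC was in 1, a window of a sterol enzyme, against 1.05% of all. Windows of Pmvk, Dhcr7 and Srebf1 count more than once, and a match is letters in a window and not a measured binding site. The windows of Lss (chr10:76531355-76531604, plus strand), Cyp51 (chr5:4104698-4104947, minus strand), Idi1 (chr13:8885356-8885605, plus strand) and Acss2 (chr2:155517793-155518042, plus strand) are shown as examples of genes that passed the genotype test in 1 of the sets. Acat2, Acaca, Elovl5, Hsd17b7, Ebp, Acly, Elovl6 and Fads2 also passed in 1 set and have windows that are not shown. The printed windows therefore do not stand for all genes that passed. They read 5′ to 3′ toward the start, and capitals mark CCAAT or its reverse complement ATTGG:
Lss: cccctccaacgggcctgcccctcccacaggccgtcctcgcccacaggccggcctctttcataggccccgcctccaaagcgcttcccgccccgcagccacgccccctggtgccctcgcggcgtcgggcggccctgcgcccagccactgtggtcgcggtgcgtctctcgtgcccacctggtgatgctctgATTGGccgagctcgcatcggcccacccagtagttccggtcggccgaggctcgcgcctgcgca
Cyp51: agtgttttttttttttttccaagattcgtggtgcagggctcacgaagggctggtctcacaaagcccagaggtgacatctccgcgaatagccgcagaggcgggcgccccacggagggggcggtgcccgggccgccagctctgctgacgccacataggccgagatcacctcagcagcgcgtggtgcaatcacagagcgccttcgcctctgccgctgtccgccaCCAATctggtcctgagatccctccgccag
Idi1: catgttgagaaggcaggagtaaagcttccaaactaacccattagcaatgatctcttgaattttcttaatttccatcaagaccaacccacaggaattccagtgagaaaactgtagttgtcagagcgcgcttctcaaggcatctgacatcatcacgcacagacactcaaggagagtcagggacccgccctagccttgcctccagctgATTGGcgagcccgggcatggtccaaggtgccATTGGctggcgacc
Acss2: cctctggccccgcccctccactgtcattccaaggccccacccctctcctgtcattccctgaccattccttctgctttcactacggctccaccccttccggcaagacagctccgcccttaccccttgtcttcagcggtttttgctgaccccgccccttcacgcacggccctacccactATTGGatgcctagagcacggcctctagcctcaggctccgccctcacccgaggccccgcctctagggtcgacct
The CCAAT match nearest the start ended 58 bases before it in Lss, 25 in Cyp51, 10 in Idi1 and 69 in Acss2, and Idi1 held a further match ending 41 bases before it.

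In the genotype comparison over all 17 tumours, 0 of the 30 tested genes passed the threshold, an adjusted p under 0.05 in edgeR's quasi-likelihood test with Benjamini-Hochberg adjustment over all tested genes. The background was 3.86% of 14338 genes, 1.81% higher and 2.05% lower. Hmgcs1, an early enzyme of the mevalonate pathway, had a count of 0 in every library and was not tested; a symbol at 0 throughout may be one to which no read was assigned, and this says nothing of its expression. Fatty acid enzymes had a median log2 fold change (Rb1/Trp53/Crebbp over Rb1/Trp53) of 0.37, with 9 of 10 positive. Sterol enzymes had a median of 0.05, and all genes one of -0.02. This fit had no term for the set. Of the 8 Rb1/Trp53/Crebbp tumours 4 were Calca-high, against 3 of the 9 Rb1/Trp53 tumours, so its values mix genotype with set. The smallest adjusted p-values were those of Ebp, a sterol isomerase (-0.33 ± 0.10 SE, adjusted p = 0.0604), and Acss2, which makes acetyl-CoA from acetate (0.57 ± 0.17 SE, adjusted p = 0.066).

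At an unadjusted p under 0.05 there were 8 of the 30, against 3126 of all genes. DESeq2 called 4 of the 30 and 9.74% of all genes, limma-voom 0 and 3.77%, and the fit with the set as a term 6 and 18%, so the members' counts moved with those of all genes.

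Within the Pomc-high tumours 4 genes were higher in Rb1/Trp53/Crebbp and 0 lower, of 30 tested. The background there was 8.42% of 14010 genes, 3.15% higher and 5.26% lower. Of the 4, 3 were fatty acid enzymes: Acss2, Acaca and Elovl5. The fourth was Acat2, the cytosolic thiolase that condenses acetyl-CoA at the entry to the mevalonate pathway. The median log2 fold change was 0.21 over the 10 fatty acid enzymes, -0.08 over the 16 sterol enzymes and 0.01 over all genes. Fewer cells of a type and less RNA per cell cannot be told apart in these bulk samples.

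Markers of other cells differed in level between these groups. All 7 macrophage markers had negative log2 fold changes (median -0.96, 2 past the threshold), and their sum was 29.4 to 146 CPM in Rb1/Trp53/Crebbp against 92.9 to 286 CPM in Rb1/Trp53. All 5 endothelial markers were negative too (median -0.94, 1 past the threshold), with a sum of 13.0 to 33.7 CPM in Rb1/Trp53/Crebbp against 27.1 to 51.0 CPM in Rb1/Trp53. The neuroendocrine list summed to 8362 to 10448 CPM in Rb1/Trp53/Crebbp against 11329 to 13911 CPM in Rb1/Trp53, without overlap, with 1 of its 6 genes past the threshold. All 5 tested anterior lobe markers were negative (median -2.81). The 4 tested posterior lobe and astroglial markers (median 2.35) and the 3 tested oligodendrocyte markers (median 1.25) were all positive. In these 3 lists 0 genes passed the threshold. The part of these markers in the lipid genes was not tested.

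Acss2 was at 33.0, 32.1, 38.2 and 37.3 CPM in Rb1/Trp53/Crebbp T5 to T8, against 15.5 to 24.7 CPM (median 22.4) in the 6 Rb1/Trp53 tumours. All 4 Rb1/Trp53/Crebbp tumours lay above all 6 of the others. The log2 fold change was 0.70 ± 0.12 SE (adjusted p = 0.0048, edgeR). An antisense gene, Acss2os, overlaps it in RefSeq, and the strand setting of the counting is not given in the sources used here.

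Acat2 was at 21.3, 19.4, 20.0 and 24.9 CPM in Rb1/Trp53/Crebbp T5 to T8, against 11.8 to 16.4 CPM (median 13.5) in the 6 Rb1/Trp53 tumours. Here too the groups did not overlap, as for 3.86% of all genes with the Rb1/Trp53/Crebbp group above. The log2 fold change was 0.66 ± 0.12 SE (adjusted p = 0.0048, edgeR).

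Acaca, the acetyl-CoA carboxylase that commits carbon to fatty acids, was at 53.9, 53.7, 55.3 and 63.4 CPM in Rb1/Trp53/Crebbp T5 to T8, against 38.5 to 57.6 CPM (median 41.3) in Rb1/Trp53. The groups overlapped through Rb1/Trp53 T2 alone, and the log2 fold change was 0.40 ± 0.11 SE (adjusted p = 0.0468, edgeR). Elovl5, an elongase of polyunsaturated fatty acids, was at 59.7, 74.3, 73.4 and 75.5 CPM in Rb1/Trp53/Crebbp T5 to T8, against 49.5 to 63.0 CPM (median 56.0) in Rb1/Trp53. Only the T5 value fell within the Rb1/Trp53 range, and the log2 fold change was 0.34 ± 0.09 SE (adjusted p = 0.04, edgeR).

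Acss2 and Acat2 passed with each of the 10 tumours left out in turn. Acaca missed the threshold in 9 of the 10 such fits and Elovl5 in 7, and no more than Acss2 and Acat2 passed without Rb1/Trp53 T5, T6 or T8 or Rb1/Trp53/Crebbp T6, T7 or T8.

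The regulators did not pass. Srebf1 averaged 92.8 ± 7.56 CPM in Rb1/Trp53/Crebbp tumours (SD, n = 4) and 113 ± 15.4 CPM in Rb1/Trp53 tumours (SD, n = 6), with the log2 fold change at -0.26 ± 0.10 SE (adjusted p = 0.132, edgeR). Insig1, which retains the SREBP factors and is itself their target, averaged 126 ± 32.7 CPM in Rb1/Trp53/Crebbp and 169 ± 32.4 CPM in Rb1/Trp53 (-0.40 ± 0.17 SE, adjusted p = 0.17). Srebf2 (-0.19) and Stard4 (-0.32), a carrier of cholesterol between membranes, were negative too. Fasn, the fatty acid synthase downstream of Acaca, had a log2 fold change of 0.08 ± 0.12 SE, and Acly, which makes cytosolic acetyl-CoA from citrate, one of 0.04 ± 0.13 SE.

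Single tumours stood apart within their group. Rb1/Trp53 T2 was the highest of the 6 Rb1/Trp53 Pomc-high tumours in 24 of the 30 genes, among them 13 of 16 sterol enzymes, 7 of 10 fatty acid enzymes and all 4 regulators, with a median log2 deviation of 0.40 from the rest of its group. Rb1/Trp53 T8 was the lowest of the 6 in 17 genes. In Rb1/Trp53/Crebbp T8 the oligodendrocyte markers summed to 874 CPM, against 74.6 to 99.3 CPM in the other 3 tumours of its group. The posterior lobe and astroglial markers summed to 369 CPM there, against 11.7 to 23.3 CPM. Scd1 stood at 51.8 CPM in that tumour, against 7.29 to 11.6 CPM. The part of these markers in Scd1 was not tested.

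**Figure D1:**
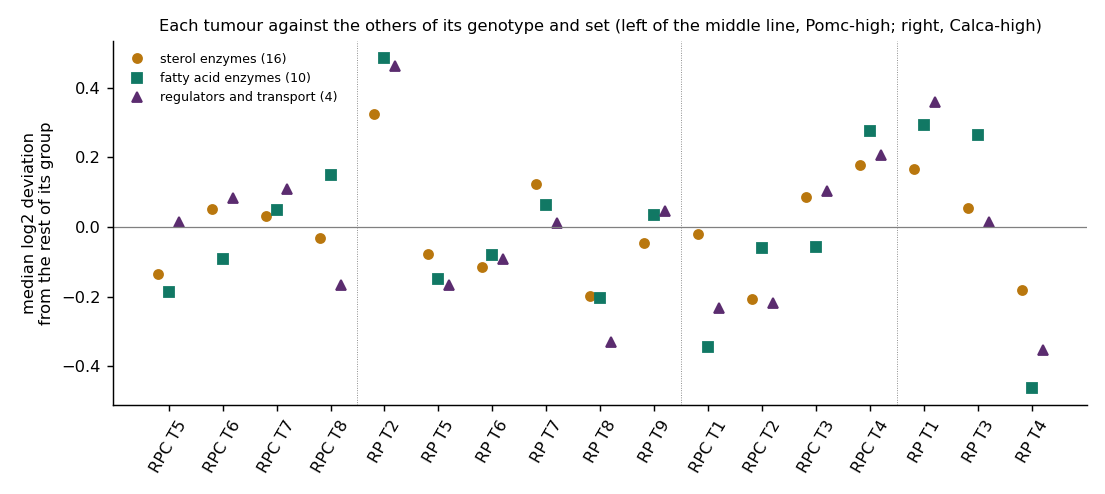
Median log2 deviation (vertical axis) of each of the 17 tumours from the other tumours of its genotype and set, for the 16 sterol enzymes, the 10 fatty acid enzymes and the 4 regulators, with the groups parted by dotted lines (RPC, Rb1/Trp53/Crebbp; RP, Rb1/Trp53). RP T2 stands high for all 3 lists, at 0.33, 0.49 and 0.46, and RP T4 low, at -0.18, -0.46 and -0.35.

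Of the other lipid lists few genes passed in these 10 tumours, in shares to be read against the 8.42% of all genes. Acacb, the mitochondrial carboxylase whose malonyl-CoA restrains fatty acid oxidation, averaged 24.3 ± 3.53 CPM in Rb1/Trp53/Crebbp (SD, n = 4) and 48.1 ± 9.03 CPM in Rb1/Trp53 (SD, n = 6), with the log2 fold change at -0.97 ± 0.14 SE (adjusted p = 0.00195, edgeR). Mlxipl, the carbohydrate-responsive factor ChREBP, fell by 0.72 on the log2 scale, and Elovl4, an elongase of very long chains, rose by 0.51. These were 3 of 27 tested genes of further fatty acid and glycerolipid synthesis. Ppard, a nuclear receptor of fatty acid oxidation, fell by 0.50 and was 1 of 14 oxidation genes to pass. Among the 8 genes listed as other sterol synthesis (some of them prenyl and dolichol enzymes), 13 of SREBP control and sterol uptake and 9 of the LXR group, 0 passed.

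Within the Calca-high tumours 9 genes were higher in Rb1/Trp53/Crebbp and 2 lower, of 30 tested. Here 36.2% of 14797 genes passed, 19.1% higher and 17.1% lower, so the 11 called are about the share of all genes. The 9 were Lss, Cyp51, Idi1 and Hsd17b7 of the sterol branch, Acly, Fads2, Scd2 and Elovl6 of the fatty acid branch, and Stard4. Ebp and Scd1 were lower. The median log2 fold change was 0.09 over the sterol enzymes, 0.44 over the fatty acid enzymes and -0.02 over all genes.

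**Figure D2:**
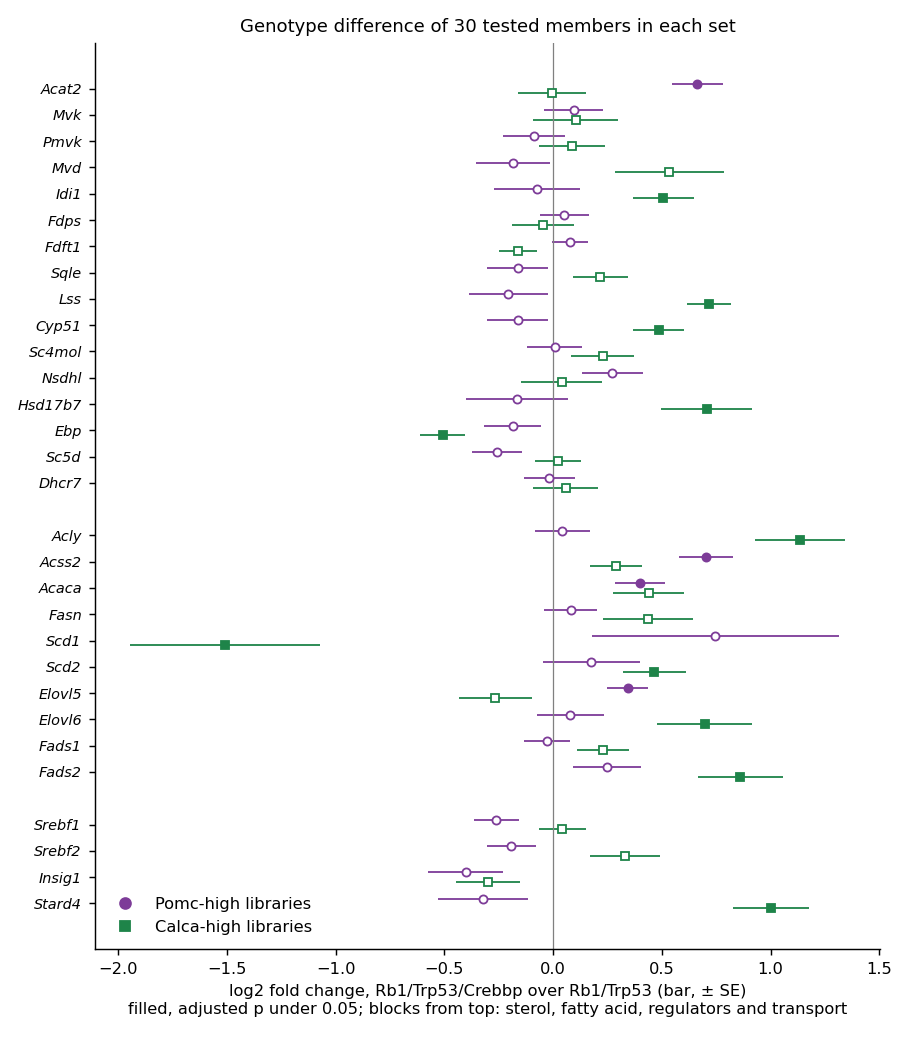
Log2 fold change (horizontal axis, Rb1/Trp53/Crebbp over Rb1/Trp53, bars ± SE) of the 30 tested genes, in Pomc-high libraries (circles) and Calca-high libraries (squares), filled where the adjusted p was under 0.05. Filled circles are at Acat2, Acss2, Acaca and Elovl5 and filled squares at 11 other genes, with Acly at 1.13 and Scd1 at -1.51.

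In the sterol branch, Lss, which closes squalene epoxide into lanosterol, was at 33.9, 31.1, 38.8 and 33.1 CPM in Rb1/Trp53/Crebbp T1 to T4, against 20.6, 21.8 and 20.8 CPM in Rb1/Trp53 T1, T3 and T4. The groups did not overlap, and neither did they in 22% of all genes with the Rb1/Trp53/Crebbp group above. The log2 fold change was 0.72 ± 0.10 SE (adjusted p = 0.00234, edgeR).

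Cyp51, the lanosterol demethylase that acts next, was at 47.3, 44.1, 50.2 and 54.7 CPM in Rb1/Trp53/Crebbp, against 38.3, 37.5 and 30.4 CPM in Rb1/Trp53. There was no overlap (log2 fold change 0.49 ± 0.12 SE, adjusted p = 0.0148). Idi1, the isopentenyl diphosphate isomerase, was at 38.9, 35.1, 40.4 and 43.8 CPM in Rb1/Trp53/Crebbp, against 31.3, 30.7 and 22.4 CPM in Rb1/Trp53. Its groups were also separate, with 0.51 ± 0.14 SE (adjusted p = 0.0251).

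Hsd17b7, a ketosteroid reductase of the pathway, was at 11.1, 8.74, 12.01 and 11.8 CPM in Rb1/Trp53/Crebbp, against 7.55, 7.67 and 5.02 CPM in Rb1/Trp53. All 4 values lay above the 3 of the other genotype, with 0.71 ± 0.21 SE (adjusted p = 0.0315). Ebp went the other way, at 29.1, 26.4, 24.1 and 27.3 CPM in Rb1/Trp53/Crebbp, against 35.1, 39.0 and 41.1 CPM in Rb1/Trp53. It lay below without overlap, as 22.5% of all genes did, with -0.51 ± 0.10 SE (adjusted p = 0.00747).

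In the fatty acid branch, Acly was at 608, 837, 899 and 1011 CPM in Rb1/Trp53/Crebbp, against 361, 482 and 316 CPM in Rb1/Trp53. No Rb1/Trp53 value reached the lowest Rb1/Trp53/Crebbp value, and the log2 fold change was 1.13 ± 0.21 SE (adjusted p = 0.00524, edgeR). Fads2, the first desaturase on the way to long polyunsaturated fatty acids, was at 47.0, 63.9, 54.1 and 76.5 CPM in Rb1/Trp53/Crebbp, against 36.6, 38.1 and 26.2 CPM in Rb1/Trp53. It did not overlap either, with 0.86 ± 0.19 SE (adjusted p = 0.0118).

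Stard4 was at 18.5, 19.1, 26.2 and 22.7 CPM in Rb1/Trp53/Crebbp, against 12.8, 10.9 and 9.08 CPM in Rb1/Trp53. The levels were separate and 2.002 times apart in the fit (log2 fold change 1.002 ± 0.17 SE, adjusted p = 0.00448). The regulators stood elsewhere: Srebf1 averaged 311 ± 33.9 CPM in Rb1/Trp53/Crebbp (SD, n = 4) and 306 ± 20.5 CPM in Rb1/Trp53 (SD, n = 3), with the log2 fold change at 0.04 ± 0.11 SE, and Srebf2 had 0.33 ± 0.16 SE and Insig1 -0.30 ± 0.15 SE, neither past the threshold.

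**Figure D3:**
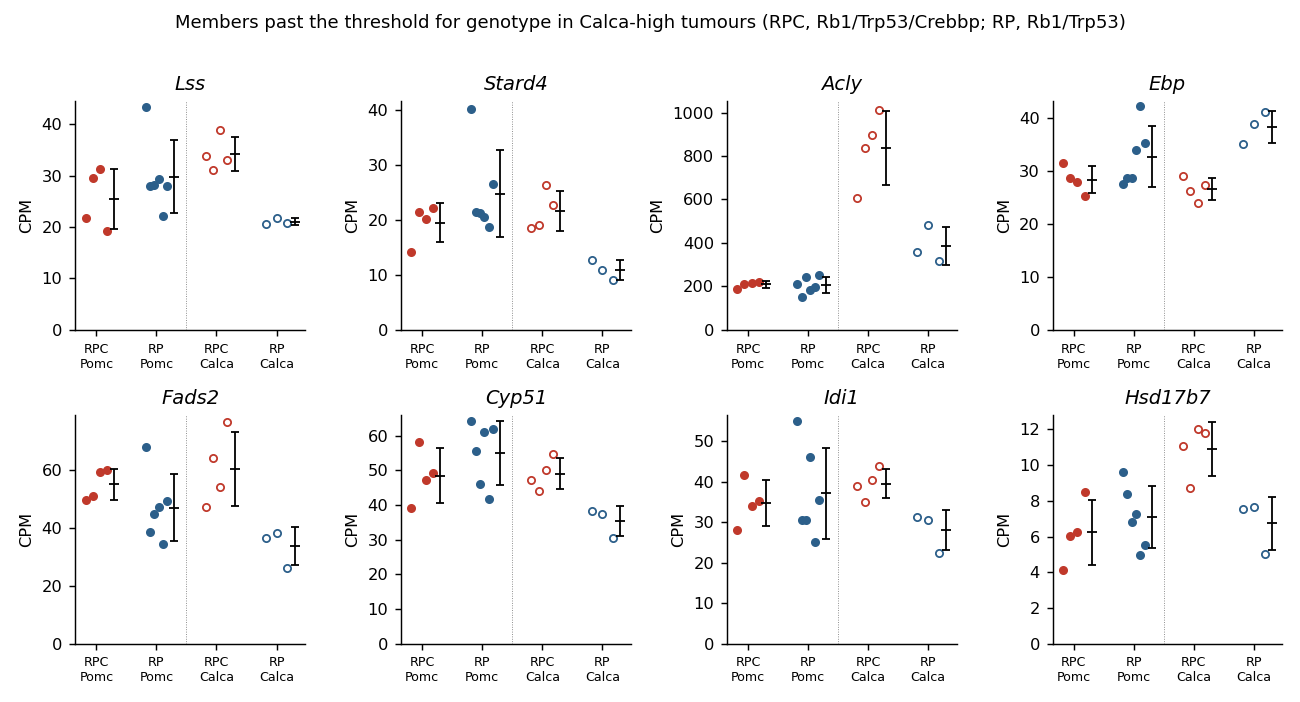
CPM (vertical axes, from 0) in each tumour of the 8 genes with the smallest adjusted p for genotype in Calca-high tumours, with mean ± SD beside the points, Pomc-high tumours filled and Calca-high tumours open (RPC, Rb1/Trp53/Crebbp; RP, Rb1/Trp53). On the Calca-high side of each panel the genotypes do not overlap, and on the Pomc-high side they do.

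The desaturases Scd1 and Scd2, which make monounsaturated fatty acids, parted. Scd1 was at 48.7, 103, 65.7 and 61.9 CPM in Rb1/Trp53/Crebbp T1 to T4, against 230.3, 293 and 79.3 CPM in Rb1/Trp53 T1, T3 and T4. The groups overlapped at T4 of Rb1/Trp53, and the log2 fold change was -1.51 ± 0.44 SE (adjusted p = 0.0317). Scd2 was at 488 to 658 CPM in Rb1/Trp53/Crebbp and 361 to 469 CPM in Rb1/Trp53 (0.47 ± 0.14 SE, adjusted p = 0.0362), and reads may be shared between these close paralogs. Elovl6, which elongates palmitate, was at 41.7 to 64.7 CPM in Rb1/Trp53/Crebbp and 25.9 to 44.3 CPM in Rb1/Trp53 (0.70 ± 0.22 SE, adjusted p = 0.0385).

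Scd1 is abundant in fat cells, and adipocyte markers moved with it. In the Calca-high tumours 7 of 8 tested adipocyte markers were lower in Rb1/Trp53/Crebbp, and the sum of the 10 listed markers was 18.4 to 22.8 CPM in Rb1/Trp53/Crebbp against 58.6 to 399 CPM in Rb1/Trp53, highest in T1 and T3. The proliferation list summed to 872 to 1082 CPM in Rb1/Trp53/Crebbp against 368 to 590.3 CPM in Rb1/Trp53, and the thyroid follicular list to 927 to 1295 CPM in Rb1/Trp53/Crebbp against 2114 to 16867 CPM in Rb1/Trp53. Neuroendocrine and thyroid C cell markers parted as well. The neuroendocrine list summed to 9780 to 16780 CPM in Rb1/Trp53/Crebbp against 22702 to 26990 CPM in Rb1/Trp53, with 5 of 6 genes lower, and the thyroid C cell list to 34769 to 67722 CPM in Rb1/Trp53/Crebbp against 118180 to 177250 CPM in Rb1/Trp53, with 3 of 4 tested genes lower. Of the endothelial markers 3 of 5 were lower. None of these sums overlapped between the genotypes, so genotype and these markers cannot be told apart in the 7 Calca-high tumours. Of the 7 fits with 1 Calca-high tumour left out, Hsd17b7, Elovl6 and Scd1 missed the threshold in 5, Scd2 in 4 and Idi1 in 2, while Lss, Cyp51, Ebp, Acly, Fads2 and Stard4 passed in all 7. Members that passed were 7 without Rb1/Trp53/Crebbp T3, beside 26.6% of all genes, and 6 without Rb1/Trp53/Crebbp T4, beside 26.9%. With Rb1/Trp53 T1 and T3 left out, Scd1 stood at -0.15 on the log2 scale. A single Rb1/Trp53 tumour was left there, assumed to vary like the others. With the adipocyte or the proliferation markers as a covariate 0 of the 30 passed, while the share of all genes past the threshold dropped to 2.27% and 4.11%, so the loss was not particular to the lipid genes.

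**Figure D4:**
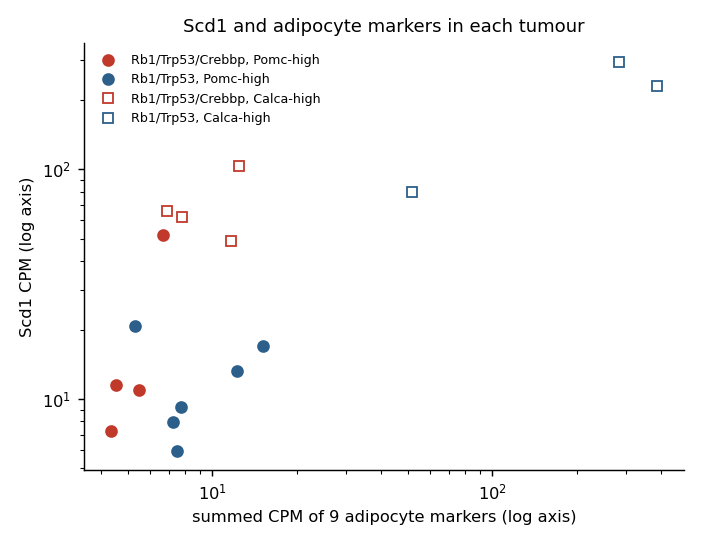
Scd1 CPM (vertical log axis) against the summed CPM of the adipocyte markers other than Cidea (horizontal log axis) in each of the 17 tumours, Pomc-high as circles and Calca-high as squares. Rb1/Trp53 T1 and T3 stand at the upper right, at 388 and 283 CPM of marker sum and 230.3 and 293 CPM of Scd1, and Rb1/Trp53/Crebbp T8 has 51.8 CPM of Scd1 at a marker sum of 6.65 CPM.

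Other lipid genes of the Calca-high tumours passed in both directions, where 36.2% of all genes did. Of the 8 genes listed as other sterol synthesis 4 rose and 2 fell. Ggps1, a prenyl synthase, rose by 0.41, and Dpagt1 (-0.73), an enzyme of dolichol-linked glycan assembly, fell. Neither enzyme makes sterols, so these counts are not those of sterol synthesis alone. Of 13 genes of SREBP control and sterol uptake, Mbtps2, the site-2 protease of SREBP, rose by 0.48 and Aup1 (-0.51) and Npc2 (-0.87), a carrier of lysosomal cholesterol, fell. Of 9 LXR genes 2 fell, the receptors Nr1h3 (-0.45) and Nr1h2 (-0.25).

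Of 27 tested genes of further fatty acid and glycerolipid synthesis 4 rose and 12 fell. Gpam, which starts glycerolipid synthesis, rose by 1.47 and Elovl2 by 1.31, while Elovl7 fell by 0.89 and Ptplb by 0.79. Of 14 fatty acid oxidation genes 1 rose and 7 fell, among them Hadh (-1.54), Acadm (-0.82) and Acaa2 (-0.95), enzymes of the oxidation cycle, and Ppard (-0.62). Hadh averaged 51.2 ± 6.31 CPM in Rb1/Trp53/Crebbp (SD, n = 4) and 150 ± 23.3 CPM in Rb1/Trp53 (SD, n = 3).

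Whether the genotype difference itself differed between the sets was tested as an interaction, the Pomc-high difference minus the Calca-high one. Of the 30 genes 6 passed, 2 positive and 4 negative, against 22.9% of 15432 genes. The interaction was -1.10 ± 0.24 SE for Acly (adjusted p = 0.00525, edgeR), -1.34 ± 0.31 SE for Stard4 (adjusted p = 0.00703), -0.93 ± 0.25 SE for Lss (adjusted p = 0.0152) and -0.66 ± 0.20 SE for Cyp51 (adjusted p = 0.03). These 4 passed the genotype test in the Calca-high tumours and not in the Pomc-high ones. It was 0.66 ± 0.19 SE for Acat2 (adjusted p = 0.021) and 0.60 ± 0.18 SE for Elovl5 (adjusted p = 0.027), both of which passed in the Pomc-high tumours and not in the Calca-high ones. The interaction of Acss2 was 0.40 ± 0.18 SE (adjusted p = 0.114) and that of Acaca -0.05 ± 0.20 SE, so a difference between the sets was not detected for these. Cyp51 missed the threshold in 8 of 17 fits with a tumour left out and Elovl5 in 2, without Rb1/Trp53 T1 or T3, and the adipocyte covariate left 0 of the 6, and 1.37% of all genes. With Rb1/Trp53 T1 and T3 and Rb1/Trp53/Crebbp T8 all left out, Acat2, Lss, Cyp51 and Elovl5 missed it.

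Between the sets, 5 genes were higher and 13 lower in the Pomc-high than in the Calca-high tumours, of 30 tested. The background was 64.4% of 15432 genes, with 31.5% higher and 32.9% lower, so most genes of any kind differed here. Of the fatty acid enzymes 7 of 10 were lower and 0 higher, with a median log2 difference of -0.54. The sterol enzymes had 4 higher and 5 lower of 16 and a median of -0.02, and the median of all genes was -0.01. Log2 fold changes between the sets are Pomc-high over Calca-high, with the genotypes weighed equally.

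Srebf1 had the smallest p of the 30. It was at 83.9 to 142 CPM (median 101) in the 10 Pomc-high tumours, against 266 to 339 CPM (median 317) in the 7 Calca-high ones. The sets did not overlap, as for 11.6% of all genes with Pomc-high below, and the log2 fold change was -1.59 ± 0.08 SE (adjusted p = 1.33e-11, edgeR). Rai1 overlaps Srebf1 in RefSeq, so reads of the pair may not be told apart where they overlap. Srebf2 was at 136 to 224 CPM (median 159) in Pomc-high and 109 to 192 CPM (median 148) in Calca-high tumours, with 0.10 ± 0.10 SE (adjusted p = 0.413).

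Acly was at 153 to 252 CPM (median 211) in Pomc-high tumours, against 316 to 1011 CPM (median 608) in Calca-high ones. The sets did not overlap (-1.45 ± 0.12 SE, adjusted p = 1.13e-08). Within each genotype the log2 fold change was -1.99 in Rb1/Trp53/Crebbp and -0.91 in Rb1/Trp53, both past the threshold.

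Elovl5 was at 49.5 to 75.5 CPM (median 60.5) in Pomc-high tumours, against 120.3 to 195 CPM (median 146) in Calca-high ones. It too was separate, with -1.29 ± 0.09 SE (adjusted p = 1.61e-09). Scd1 was at 5.96 to 51.8 CPM (median 11.3) in Pomc-high tumours, against 48.7 to 293 CPM (median 79.3) in Calca-high ones. The ranges met only through Rb1/Trp53/Crebbp T8, and the value was -2.89 ± 0.41 SE (adjusted p = 1.68e-05), or -1.76 within Rb1/Trp53/Crebbp and -4.02 within Rb1/Trp53. With the adipocyte covariate it was -1.70 and did not pass (adjusted p = 0.108).

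Acss2 was at 15.5 to 38.2 CPM (median 24.7) in Pomc-high tumours, against 34.5 to 51.5 CPM (median 38.7) in Calca-high ones. The sets overlapped through Rb1/Trp53/Crebbp tumours of the Pomc-high set (-0.56 ± 0.09 SE, adjusted p = 3.49e-05). Elovl6 (-0.73), Acaca (-0.52) and Fasn (-0.39) were lower as well. Elovl6 and Fasn did not pass within Rb1/Trp53 tumours, where 54.7% of all genes did. Fasn was at 203 to 333 CPM in Pomc-high and 194 to 344 CPM in Calca-high tumours of that genotype. With the adipocyte covariate Elovl6, Acaca and Fasn all missed the threshold, which 35.1% of all genes passed. The desaturases of polyunsaturated fatty acids, Fads1 (0.0038 ± 0.08 SE) and Fads2 (0.17 ± 0.13 SE), and Scd2 (-0.08 ± 0.16 SE) did not pass.

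**Figure D5:**
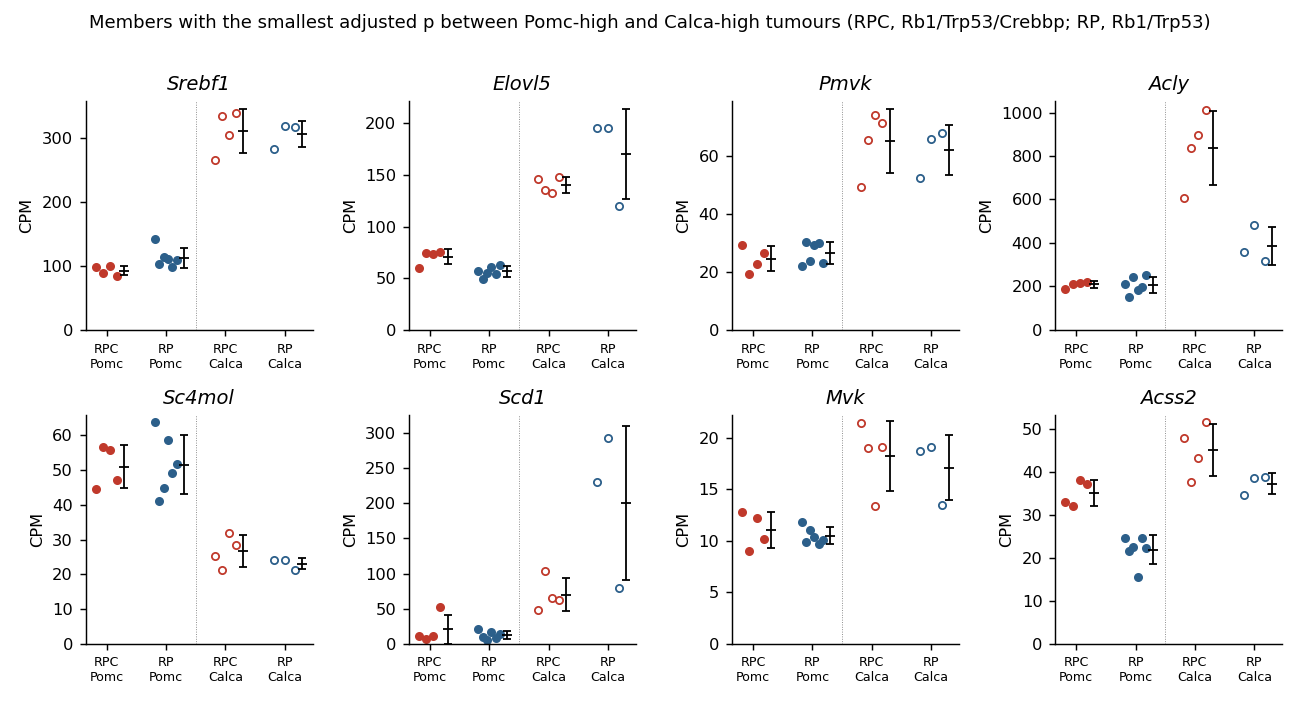
CPM (vertical axes, from 0) in each tumour of the 8 genes with the smallest adjusted p between the sets, with mean ± SD beside the points, Pomc-high tumours filled and left, Calca-high tumours open and right (RPC, Rb1/Trp53/Crebbp; RP, Rb1/Trp53). Srebf1, Elovl5, Pmvk, Acly and Mvk lie wholly lower in the Pomc-high tumours and Sc4mol wholly higher.

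In the sterol branch the early kinases were lower in Pomc-high tumours. Pmvk, phosphomevalonate kinase, was at 19.5 to 30.3 CPM (median 25.2) in Pomc-high tumours, against 49.4 to 74.1 CPM (median 66.0) in Calca-high ones. The sets did not overlap (-1.32 ± 0.11 SE, adjusted p = 9.77e-09). Mvk, mevalonate kinase, was at 8.99 to 12.8 CPM (median 10.3) in Pomc-high tumours, against 13.4 to 21.4 CPM (median 19.0) in Calca-high ones, also separate (-0.71 ± 0.11 SE, adjusted p = 2.64e-05).

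Sc4mol, the C-4 methylsterol oxidase now named Msmo1, was higher instead, at 41.1 to 63.8 CPM (median 50.4) in Pomc-high tumours, against 21.2 to 32.0 CPM (median 24.0) in Calca-high ones. It was the member whose sets did not overlap with Pomc-high above, as for 11% of all genes (1.04 ± 0.10 SE, adjusted p = 1.4e-07, edgeR). Dhcr7 (0.49), which makes cholesterol from its last precursor, Mvd (0.42), a decarboxylase of the mevalonate steps, and Cyp51 (0.31) were higher, and so was Stard4 (0.52). Sqle (-0.41), the squalene epoxidase, Fdps (-0.22), the farnesyl diphosphate synthase, and Fdft1 (-0.16), the squalene synthase, were lower. With a tumour left out, Fdps missed the threshold in 12 of 17 fits, Fdft1 in 6, Mvd in 2 (without Rb1/Trp53/Crebbp T5 or Rb1/Trp53 T4) and Fasn in 1 (without Rb1/Trp53 T1). Cyp51 and Stard4 were higher within Rb1/Trp53 (0.64 and 1.18) and had -0.000258 and -0.13 within Rb1/Trp53/Crebbp, where neither passed the threshold. Sqle did not pass within Rb1/Trp53, Mvd and Fdft1 did not pass within Rb1/Trp53/Crebbp, and Fdps passed within neither genotype.

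Among the other lists, Npc1 (0.72) and Soat1 (0.87), which move and esterify cholesterol, and Rnf139 (0.53) were higher in Pomc-high tumours, and Npc2 (-1.19) was lower; of 13 genes of SREBP control and sterol uptake 4 were higher and 3 lower. Of the 8 genes listed as other sterol synthesis 4 were higher and 2 lower, with Lbr at -0.48 and Tm7sf2, another sterol reductase, at 0.63. Of 9 LXR genes 1 was higher and 5 lower, with Lpcat3, a phospholipid acyltransferase, at -1.65. Of 27 fatty acid and glycerolipid genes 7 were higher and 9 lower, with Elovl7 at -2.70, Lpin1 at -1.58 and Acsl1 at -1.22. Of 14 oxidation genes 2 were higher and 6 lower, with Hadh at -1.79.

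Markers moved with the sets too: all 6 proliferation markers and all 5 thyroid follicular markers were lower in Pomc-high tumours and all 7 anterior lobe markers higher. The 4 tested thyroid C cell markers were lower as well, at -10.0 to -6.58 on the log2 scale. That list holds Calca, on which the sets were cut. All 4 fibroblast markers were lower too (median log2 fold change -2.57), as were 5 of 7 tested adipocyte markers (median -3.87). Of those 7, 1 was higher. Without Cidea, the adipocyte list summed to 51.4 to 388 CPM in Calca-high Rb1/Trp53 tumours. It summed to 6.90 to 12.5 CPM in Calca-high Rb1/Trp53/Crebbp tumours. In Pomc-high tumours it was 4.35 to 6.65 CPM (Rb1/Trp53/Crebbp) and 5.30 to 15.2 CPM (Rb1/Trp53). The high sums were thus those of the Calca-high Rb1/Trp53 tumours. The anterior lobe list summed to 11.3 to 14273 CPM in Pomc-high tumours, against at most 0.552 CPM in Calca-high ones. Their part in the lipid genes was not tested. With the covariate for proliferation 11 members passed, beside 35.4% of all genes, and with that for adipocyte markers 8, beside 35.1%. Srebf1, Elovl5, Acly, Pmvk and Sc4mol passed under all 12 other settings and with each tumour left out.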

How the data were processed

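RNA from 17 mouse tumours was sequenced after TRIzol extraction and oligo-dT selection with a NEBNext Ultra kit, per the labels' protocols. The authors deposited raw read counts per gene symbol, 1 table per tumour, with 23284 genes and 5 summary rows. Per the submitters' processing notes, HTSeq (0.6.1), TopHat2 (2.0.12) and bcl2fastq (1.8.2) are named, with mm9 as the build; for annotation and strand, the setting is not given in the sources used here. Genes held 64.5% to 78.3% of each table (8328297 to 28140755 counts). Reads of no feature (11.7% to 21.7%), ambiguous reads (0.56% to 0.843%) and reads not unique (8.20% to 18.5%) entered neither library sizes nor tests. No 2 libraries of a genotype agreed within sampling noise, with a chi-square per degree of freedom of 8.30 or more over 64 pairs.

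Counts were fitted in R 4.3.3 with edgeR 4.0.16 (filterByExpr, TMM, robust quasi-likelihood test), for genotype over all 17 libraries, within each set with its own filter, and as 4 cells of genotype and set for the interaction and the set difference. P-values were adjusted by Benjamini-Hochberg over all tested genes, with a threshold of 0.05, and each SE is the size of the log2 fold change over the root of F. CPM printed by tumour are TMM-scaled over all 17 libraries. The fits were tested on simulated counts with few changed genes and no other difference. That setting does not cover the wide differences seen within the Calca-high set and between the sets. Alternatives were DESeq2 size factors, upper-quartile factors, no filter, a filter of 1 CPM, DESeq2 1.42.0, limma-voom (limma 3.58.1), a block on tumour number, adipocyte and proliferation covariates (mean log2 CPM of the list), the set as a term, fits within a genotype, and each tumour left out. Leaving out the libraries with the most fat or glial markers was chosen after seeing the data. Members and lists were chosen with earlier results of these data known. Named are all members, with values by tumour for those past the threshold (the 8 with the smallest adjusted p where more passed), and up to 4 genes of each other list; Hadh and Acacb levels illustrate theirs. Some genes of the other lists are not reported here. Deviations of a tumour use log2(CPM + 1). Promoter windows came from RefSeq (GRCm38.p6), on another build than the counts, and were matched by symbol. Figures were drawn with matplotlib 3.10.9.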

Additional observations from a re-analysis of the deposited data

Results flagged for a closer look

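The 90 groups of values (30 genes in the 3 groups of 4 or 6 tumours) were searched for single tumours far from their group by Dixon's criterion, and 13 were found; chance gives about 1 in 20 groups. Of the 13, 8 were high values of Rb1/Trp53 T2 in the Pomc-high set: Lss at 43.4 CPM, Dhcr7 at 49.7 CPM, Acaca at 57.6 CPM, Fasn at 333 CPM, Elovl6 at 33.7 CPM, Srebf1 at 142 CPM, Srebf2 at 224 CPM and Stard4 at 40.1 CPM. Rb1/Trp53/Crebbp T8 was high in 3, with Acaca at 63.4 CPM, Scd1 at 51.8 CPM and Scd2 at 645 CPM. It was the tumour with the highest sums of oligodendrocyte markers and of posterior lobe and astroglial markers. Acss2 was low in Rb1/Trp53 T7, at 15.5 CPM, and Elovl5 was low in Rb1/Trp53/Crebbp T5, at 59.7 CPM.

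The genotype difference differed between the sets, by the interaction test of edgeR with an adjusted p under the threshold, in 6 of 30 genes, against 22.9% of all 15432 genes, so the share is near that of all genes. The log2 interaction was 0.66 for Acat2 and 0.60 for Elovl5, where the Pomc-high difference was the more positive one. It was -0.93 for Lss, -0.66 for Cyp51, -1.10 for Acly and -1.34 for Stard4.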

How the results depend on the processing

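The counts of genes past the threshold were 0 over all 17 tumours, 4 in Pomc-high, 11 in Calca-high, 6 for the interaction and 18 between the sets. With tumours left out in turn they were 0 to 2, 2 to 3, 6 to 10, 5 to 7 and 16 to 19 in the same order. The shares of all genes past the threshold in those fits were 1.98% to 6.9%, 5.29% to 8.6%, 23.9% to 35.3%, 16.1% to 24.9% and 60.5% to 65.1%. The counts over all 17 tumours were 4 with DESeq2, 2 with the replicate block, 9 with the adipocyte covariate, 2 with the proliferation covariate, 6 with the set as a term and 2 without Rb1/Trp53 T1 and T3 and Rb1/Trp53/Crebbp T8. The share of all genes past the threshold, 3.86% at first, was 9.74%, 3%, 20.2%, 7.41%, 18% and 4.48% in these 6 fits. In Pomc-high tumours it was 2 without a filter, 1 with the replicate block and 2 with the proliferation covariate. The share of all genes was 5.53%, 2.53% and 7.66% there, against 8.42%. In Calca-high tumours it was 3 with the replicate block and 0 with either covariate, where 16 (adipocyte) and 14 (proliferation) had an unadjusted p under 0.05. The share of all genes was 18.2% with the block, 2.27% (adipocyte) and 4.11% (proliferation), against 36.2%. For the interaction it was 3 with the block, 0 with the adipocyte covariate (12 at an unadjusted p under 0.05) and 1 with the proliferation covariate; between the sets it was 7, 8 and 11. The share of all genes was 8.12%, 1.37% and 10.1% for the interaction, against 22.9%, and 12.5%, 35.1% and 35.4% between the sets, against 64.4%, so the members' counts mostly moved with those of all genes. Same-numbered tumours did not clearly deviate together (7 pairs, r -0.15 to 0.20, 2 of them best with their own number). A check over 7 pairs cannot show that the numbers pair no samples. The block spends degrees of freedom on the number, and between the sets it rested on number 2, the only number with tumours of both sets.

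Signs turned in these values. Acly over all 17 tumours was -0.072 with the proliferation covariate. Scd1 in Calca-high tumours was 0.55 with the adipocyte and 0.11 with the proliferation covariate, and its interaction was -0.17 without the 3 tumours. The interaction of Elovl5 was -0.22 with the adipocyte covariate. Between the sets, the block gave 0.48 for Fdps, 0.11 for Fdft1, 0.45 for Sqle, 0.47 for Hsd17b7, 0.0078 for Acaca and 0.23 for Fasn. Only number 2 was shared by tumours of both sets, so the block linked the sets through Rb1/Trp53 T2 and Rb1/Trp53/Crebbp T2 alone. Rb1/Trp53 T2 was the highest of its group in 24 of the 30 genes. The adipocyte covariate gave 0.024 for Fdps, 0.021 for Fdft1 and 0.068 for Hsd17b7, and Hsd17b7 was 0.075 within Rb1/Trp53. Within Rb1/Trp53/Crebbp it was -0.000258 for Cyp51 and -0.13 for Stard4. The cause of these changes was not tested. The sets hold 3 to 6 tumours a genotype, and a gene that missed the threshold may still differ.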
